A study of Mus musculus with 24 samples.

Results

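The genes described here encode proteins of the cytosolic ribosome, measured in the livers of young and adult mice that underwent a sham operation or partial hepatic ischemia. Members were chosen by symbol: a probe set entered if its RefSeq accession mapped to a symbol that begins with Rpl or Rps and a digit, to Rplp0, Rplp1 or Rplp2, or to Rpsa, and symbols that begin with Rps6k, which are kinases, were left out. This gave 30 probe sets of the 26180 on the array table and 28 genes of 14351. Of these, 15 belong to the large subunit and 12 to the small subunit. The large subunit genes include the paralogs Rpl3l, Rpl7l1 and Rpl39l, and the small subunit genes include the paralog Rps27l, which leaves 12 and 11 genes, 23 in all, called the core genes here. The symbol rule also took in Rps19bp1, which encodes a protein that binds Rps19 and is not a ribosomal protein. It is kept among the 28 members and described apart. The RefSeq table lists 63 further protein-coding symbols that meet the rule, among them the stalk proteins Rplp0 and Rplp1, the 5S particle proteins Rpl5 and Rpl11, and Rps6. No probe set mapped to these symbols, so they were not analysed here. The 28 members are thus only a part of the 91 protein-coding symbols that meet the rule.

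Total RNA of the median and left liver lobes was hybridized to 24 Affymetrix 3' arrays, 3 in each of 8 groups. The young mice were aged 4 to 5 weeks and the adults 12 to 14 months, and at each age mice received a sham operation or 30, 60 or 90 min of ischemia. The design text counts 12 mice per age, so each array is taken as 1 mouse. Strain and sex were not given in the sources used here. The deposited values are ratios to sham: in each age the mean of the 3 sham arrays is 1 for every probe set, so sham livers of the ages cannot be compared, no gene's level can be set against another gene's, and the presence of liver markers cannot be checked from brightness. The 3 ischemia times of an age are all read against the same 3 sham arrays.

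The cytosolic ribosome is built from a large and a small subunit, each an assembly of ribosomal RNA with proteins of the Rpl and Rps families. Most of the proteins are needed in equal numbers. Ribosomal protein messenger RNAs typically begin with a short run of pyrimidines, the terminal oligopyrimidine tract, through which the mTOR pathway adjusts their translation. The liver makes most plasma proteins, and ribosomal protein messages are among the abundant messages of hepatocytes.

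The start of the message is the sequence that ribosomal protein genes are known to share. RefSeq's table of promoters (GRCm38.p6) held an entry for 22 of the 28 members and 17 of the 23 core genes, and Rpl8, Rpl17, Rpl21, Rpl32 and Rps14 were among those without one. The motif searched was a C within 5 bases of the annotated start followed by at least 4 bases that are each C or T, on the sense strand. It was found at a start of 9 of the 17 core genes, beside 21.2% of all 27025 genes in the table. Each window printed here holds 15 bases before the annotated start and 15 from it, in the sense direction, and capitals mark the pyrimidine tract. The first 5 carry a tract and belong to genes whose values are given at length, and the last 3 carry none and belong to Rpl23 and Rpl7l1, which passed the test at 60 min in adults, and to Rpsa, which did not follow the other members.
Rplp2 (chr7:141447636-141447665, plus strand): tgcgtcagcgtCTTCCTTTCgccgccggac
Rps9 (chr7:3704026-3704055, plus strand): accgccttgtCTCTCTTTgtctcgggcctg
Rps10 (chr17:27635230-27635259, minus strand): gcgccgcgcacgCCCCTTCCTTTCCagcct
Rps24 (chr14:24490663-24490692, plus strand): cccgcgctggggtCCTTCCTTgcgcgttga
Rps15a (chr7:118116133-118116162, minus strand): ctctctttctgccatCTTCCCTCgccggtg
Rpl23 (chr11:97782425-97782454, minus strand): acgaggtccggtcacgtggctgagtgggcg
Rpl7l1 (chr17:46782642-46782671, minus strand): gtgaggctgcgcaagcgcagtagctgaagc
Rpsa (chr9:120127751-120127780, plus strand): gtgggttatttaaggacgtcatttccggcc

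In the 250 bases before the start, searched on both strands, CCGGAAG (bound by ETS family factors) was found in 4 of the 17 core genes, Rplp2, Rps10, Rps21 and Rpsa, beside 7.83% of all genes. TCGCGA was found in 4, Rpl37a, Rps9, Rps15a and Rps19, beside 2.38% of all genes. AAGATGG (bound by YY1) and TATAAA (the TATA box) were each found in Rpl22 alone among the core genes, beside 5.18% and 14.3% of all genes. These counts describe letters in annotated windows and were not tested. Rps24 and Rps21 have a second annotated start in the table, and that window held no tract.

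In adult liver the ribosomal protein genes as a group lay below sham after 60 and 90 min of ischemia. The median log2 fold change of the 23 core genes was -0.38 at 60 min, with 21 of 23 below 0, and -0.31 at 90 min, with 22 of 23 below 0. The median over all 14351 genes was -0.05 and -0.04 in the same comparisons. At 30 min the adult core median was -0.05, close to the -0.03 of all genes. In young liver the core medians were -0.17 at 30 min, -0.18 at 60 min and -0.10 at 90 min, each beside -0.02 for all genes. At 60 min all 23 core genes of the young lay below 0, beside 55.3% of all genes. These medians describe the set and carry no test.

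Few members passed the test on their own. The test was limma's moderated test on log2 ratios with Benjamini-Hochberg adjustment over 14351 genes, two-sided, at an adjusted p of 0.05. At 60 min in adults 3 of 28 members passed, all lower, beside 9.78% of all genes called lower in that comparison, so the members were called about as often as genes in general. Of the 3, Rps19bp1 is not a ribosomal protein and Rpl7l1 is a paralog. Without Rps19bp1, 2 of 27 passed, and 1 of 23 core genes did, both below the share of all genes. At 90 min in adults 1 of 28 passed, beside 6.28% of all genes called lower. No member passed at 30 min in adults, where 0% of all genes were called, nor in the young at 30, 60 or 90 min, where 0.0557%, 0.0279% and 0.181% of all genes were called in either direction. At an unadjusted limma p of 0.05, 10 of 28 members passed at 60 min in adults, beside 33.3% of all genes, and 6 of 28 at 90 min, beside 28.6%. At 30 min in adults 1 passed, beside 10.4% of all genes. In the young 2, 1 and 1 passed at 30, 60 and 90 min, beside 8.36%, 10.4% and 9% of all genes. The members' share was thus near that of all genes at 60 min in adults and did not exceed it in the other 5 comparisons.

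**Figure D1:**
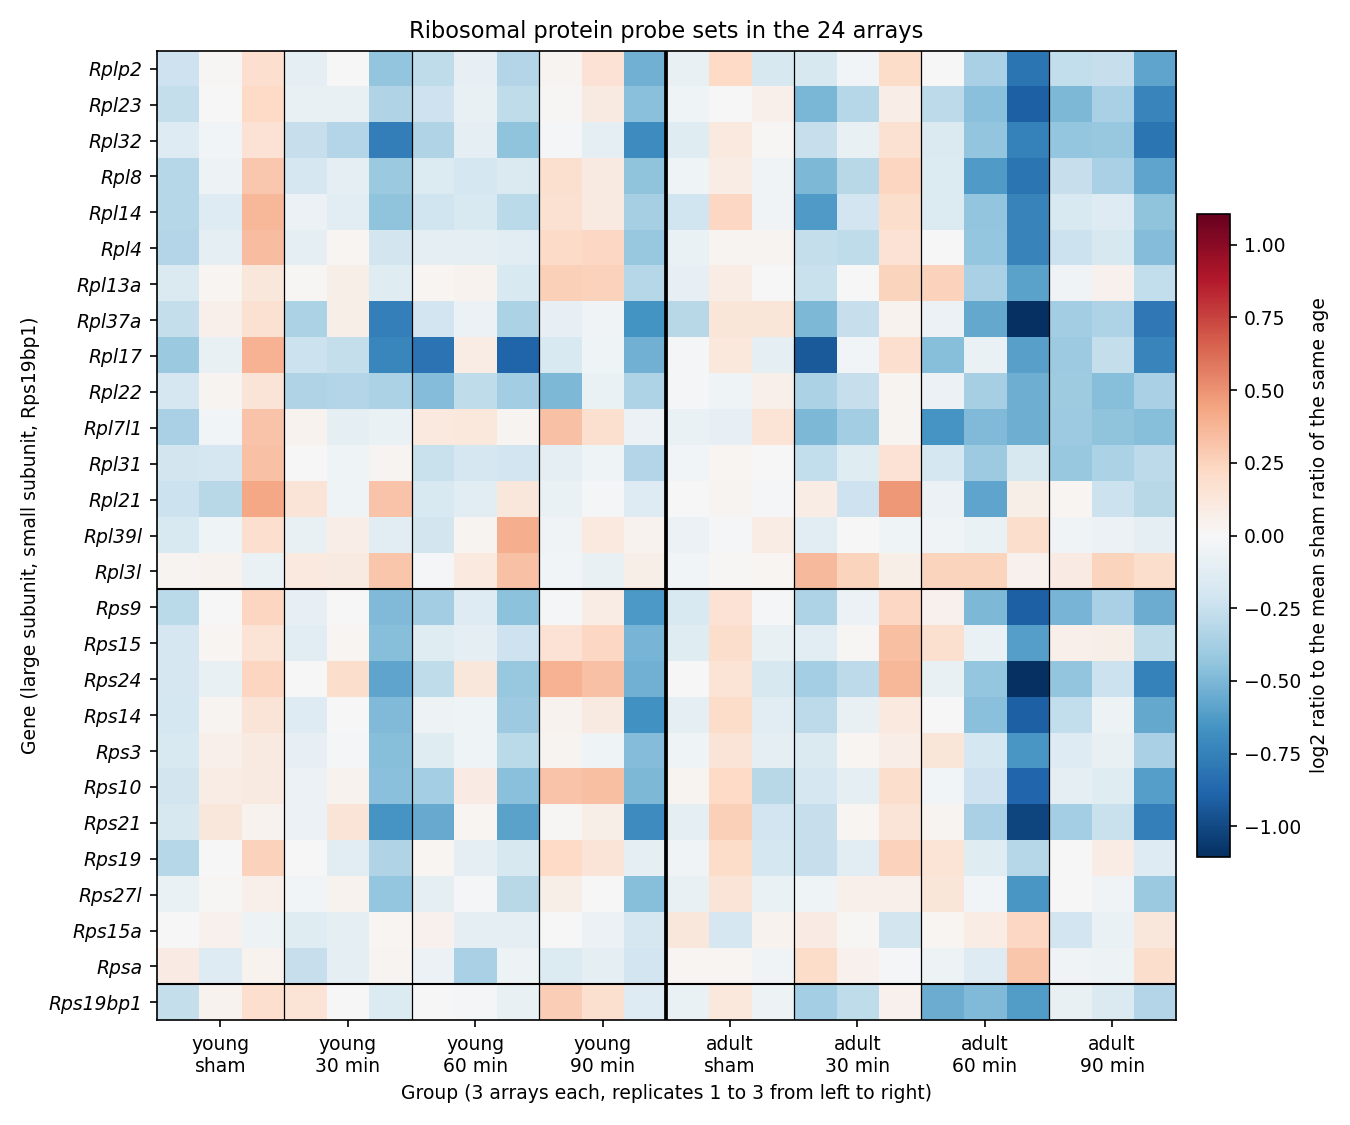
Log2 ratio to sham of the same age for 27 of the 28 members (rows, large subunit above small subunit, Rps19bp1 last) in the 24 arrays (columns, grouped by age and ischemia time), blue for lower and red for higher. The columns of adult 60 min replicate 3, adult 90 min replicate 3 and young 90 min replicate 3 are blue over most rows, and Rpsa, Rps15a and Rpl3l differ from the rows around them.

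Arrays of a group differed widely. The median ratio of the 23 core genes was 0.965, 1.10 and 0.973 in the 3 adult sham arrays. It was 0.980, 0.755 and 0.597 in the adult 60 min arrays. It was 0.839, 0.848 and 0.688 in the adult 90 min arrays. All 3 arrays at 90 min thus lay below all 3 sham arrays, whereas at 60 min replicate 1 lay inside the sham range and replicate 3 was the lowest of the 24 arrays. In adults at 30 min the medians were 0.831, 0.944 and 1.13, on both sides of sham.

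Young sham arrays spanned 0.870, 1.00 and 1.12, a wider range than the adult sham arrays. The young medians were 0.936, 0.994 and 0.733 at 30 min, 0.857, 0.933 and 0.812 at 60 min, and 1.02, 1.06 and 0.716 at 90 min. In each young ischemia group replicate 3 was the lowest array, and at every time the group overlapped with sham. The median over all genes lay between 0.941 and 1.03 in all 24 arrays.

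**Figure D2:**
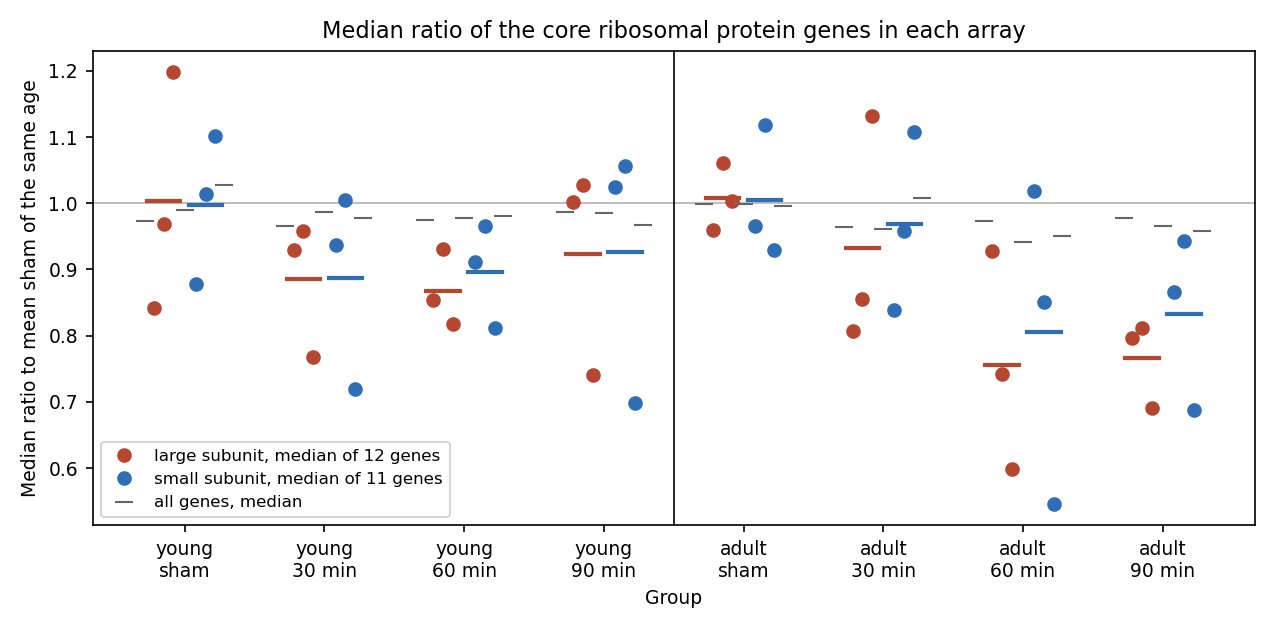
Median ratio to the mean sham of the same age (vertical axis) over the 12 large subunit core genes (red points) and the 11 small subunit core genes (blue points) in each of the 3 arrays of the 8 groups. Bars are means of the 3 arrays and grey dashes the median of all genes, and the 3 adult 90 min arrays lie below the adult sham arrays for the large subunit while replicate 2 of the small subunit, at 0.943, lies inside the sham range.

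Sample titles carry a code whose first part is shared by arrays of different groups, and an ischemia array could be read against the sham array of the same code. In adults at 60 min the core median log2 difference was 0.07, -0.46 and -0.64 in the 3 codes. At 90 min it was -0.37 and -0.29 in the 2 codes that held both groups. At 30 min it was -0.19, -0.24 and 0.24. In the young it was 0.14 and -0.31 at 60 min, 0.36 and -0.45 at 90 min, and -0.40 at 30 min in the only code with both groups. The adult 90 min group was thus lower in each code, and the other groups were lower in some codes and higher in others, except the young at 30 min with 1 code. The second part of the title code was the same in all 3 arrays of 5 of the 8 groups, so its part cannot be told apart from the group there.

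The subunits were set side by side, first in adults. At 30 min the median log2 fold change was -0.16 for the large subunit core genes and -0.03 for the small subunit core genes, the latter equal to the -0.03 of all genes. At 60 min the median log2 fold change was -0.38 for the 12 large subunit core genes and -0.36 for the 11 small subunit core genes. At 90 min the medians were -0.38 and -0.26. Within each array the large subunit median minus the small subunit median was -0.12, -0.22 and 0.01 on the log2 scale at 90 min and -0.01, -0.08 and 0.11 in sham, so the ranges overlapped. At 90 min in adults 10 of 15 large subunit genes and 4 of 12 small subunit genes had all 3 arrays below all 3 sham arrays, beside 26.4% of all genes. At 60 min this held for 6 of 15 large subunit genes and 0 of 12 small subunit genes, beside 25.9% of all genes. Over all 28 members, Rps19bp1 included, the counts were 7 at 60 min and 15 at 90 min. The large subunit counts were above the background at both times. The small subunit count was below it at 60 min and, at 33.3%, above it at 90 min. Most core genes went up and down together within groups, so these counts are not independent. In the young the large and small subunit core medians were -0.18 and -0.16 at 30 min and -0.20 and -0.16 at 60 min. At 90 min in the young they were -0.10 and -0.15, so the small subunit was the lower there. The difference between the subunits was not tested at either age.

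Among large subunit core genes, Rpl23 and Rpl22 passed the test, each at 1 time in adults. Rpl23 encodes a protein of the large subunit that is also known to bind Mdm2. Its ratio was 0.966, 0.995 and 1.04 in adult sham, 0.706, 0.806 and 1.05 at 30 min, 0.819, 0.726 and 0.533 at 60 min, and 0.709, 0.778 and 0.603 at 90 min. The 60 min and 90 min arrays all lay below sham, and the 30 min arrays overlapped with it. At 60 min Rpl23 fell, averaging a ratio of 0.693 ± 0.146 (SD, n = 3), a log2 fold change of -0.55 (SE 0.17, limma adjusted p = 0.0434). At 90 min the log2 fold change was of like size, -0.53, and did not pass (limma adjusted p = 0.062). In the young, Rpl23 had log2 fold changes of -0.15, -0.18 and -0.10 at 30, 60 and 90 min.

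Rpl22 encodes a large subunit protein that also binds RNA outside the ribosome. Its adult ratio was 0.990, 0.970 and 1.04 in sham, 0.957, 0.777 and 0.687 at 60 min, and 0.761, 0.724 and 0.781 at 90 min. All 90 min arrays lay below sham and close together. It fell at 90 min and averaged a ratio of 0.755 ± 0.0294 (SD, n = 3), a log2 fold change of -0.40 (SE 0.12, limma adjusted p = 0.0486). In the young the ratio was 0.879, 1.02 and 1.10 in sham, 0.795, 0.798 and 0.783 at 30 min, 0.718, 0.824 and 0.768 at 60 min, and 0.710, 0.952 and 0.789 at 90 min. Rpl22 was the only member whose young arrays all lay below sham at both 30 and 60 min, with log2 fold changes of -0.33 and -0.37, and neither passed (limma adjusted p = 0.413 and 0.303). Groups that lay wholly below sham made up 9.49% of all genes at 30 min and 7.78% at 60 min in the young.

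The calls at both times changed when single arrays were left out, and so did the calls over all genes. At 60 min in adults the count of members called was 0 without sham replicate 1, without sham replicate 3, without 60 min replicate 2 or without 60 min replicate 3, 1 without sham replicate 2, and 11 without 60 min replicate 1, whose core median stood apart from the other 60 min arrays. Among the 11 were Rpl4, Rpl8, Rpl22, Rpl32, Rpl37a, Rps9 and Rps14 beside the members called with all arrays. Over all 14351 genes the calls at 60 min went from 1712 to 14, 4, 23 and 1 in the 4 fits that left no member called, to 588 without sham replicate 2 and to 2177 without 60 min replicate 1. At 90 min the call of Rpl22 was lost whichever of the 6 arrays was left out, with limma adjusted p between 0.0703 and 0.166 and log2 fold changes between -0.43 and -0.37. The calls over all genes at 90 min went from 1069 to between 7 and 806, lowest without sham replicate 3 (7) and without 90 min replicate 1 (17). Quantile normalization left no member called at either time, and 0 and 3 genes called in all at 60 and 90 min (1486 and 1507 at an unadjusted limma p of 0.05). The loss of calls was thus seen over the whole array and not in the members alone.

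The other large subunit core genes did not pass. Rpl37a had the lowest adult value at 60 min, with ratios of 0.959, 0.676 and 0.466 against 0.807, 1.10 and 1.10 in sham. The groups overlapped, and the log2 fold change was -0.56 (SE 0.24, limma adjusted p = 0.108). Rpl32 had the lowest value at 90 min, with ratios of 0.742, 0.747 and 0.572 against 0.912, 1.08 and 1.01 in sham. All 3 arrays lay below sham, with a log2 fold change of -0.55 (SE 0.18, limma adjusted p = 0.0665). Rpl32 was also the lowest member in the young at 30 min, at ratios of 0.839, 0.801 and 0.589 against 0.906, 0.977 and 1.12 in sham, and its log2 fold change of -0.44 did not pass (limma adjusted p = 0.5).

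Rpl8, a protein near the catalytic centre of the large subunit, had adult ratios of 0.899, 0.649 and 0.572 at 60 min against 0.967, 1.06 and 0.972 in sham, without overlap. Its log2 fold change was -0.53 (SE 0.19, limma adjusted p = 0.07). Rplp2, the only acidic stalk protein measured, which recruits translation factors, had adult ratios of 1.01, 0.780 and 0.570 at 60 min and 0.829, 0.837 and 0.666 at 90 min, against 0.946, 1.17 and 0.886 in sham. Its arrays overlapped with sham at 60 min and lay below it at 90 min, with log2 fold changes of -0.38 and -0.36 (limma adjusted p = 0.178 and 0.218). Rpl17 varied most within groups in the young at 60 min, with ratios of 0.569, 1.06 and 0.541, and had the lowest young value there, a log2 fold change of -0.50 (limma adjusted p = 0.521). Rpl13a, known also as a part of a complex that silences inflammatory messages, lay closer to sham than most, at -0.23 and -0.09 in adults at 60 and 90 min. Rpl21 had the highest young value at 30 min, 0.18, and lay at 0.11, -0.19 and -0.17 in adults at 30, 60 and 90 min. Rpl4, Rpl14 and Rpl31 had log2 fold changes between -0.43 and -0.24 at 60 and 90 min in adults, and Rpl31 lay wholly below sham at both times.

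No small subunit gene passed in any comparison. Rps24 had the lowest small subunit value at 60 min in adults, with ratios of 0.946, 0.744 and 0.464 against 1.00, 1.11 and 0.884 in sham. The groups overlapped, and the log2 fold change was -0.53 (SE 0.27, limma adjusted p = 0.178). Rps24 had 3 probe sets, each named by another transcript, and each gave -0.53, with values so close in every array that they count as 1 measurement. Rps9 had the lowest small subunit value at 90 min, with ratios of 0.700, 0.780 and 0.682 against 0.892, 1.12 and 0.990 in sham. All 90 min arrays lay below sham, with a log2 fold change of -0.47 (SE 0.21, limma adjusted p = 0.155). Rps21 was nearly as low, at -0.44 and -0.45 at 60 and 90 min.

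Rps10 had adult ratios of 0.980, 0.851 and 0.546 at 60 min and 0.932, 0.913 and 0.656 at 90 min against 1.02, 1.17 and 0.811 in sham. Replicate 3 alone lay below sham at each time, and the log2 fold changes were -0.36 and -0.26 (limma adjusted p = 0.287 and 0.465). Rps14 had adult log2 fold changes of -0.44 at 60 min and -0.29 at 90 min. Rps3, a protein of the messenger entry channel that also acts in DNA repair, had values of -0.23 and -0.19. Rps19, the gene most often mutated in Diamond-Blackfan anemia, lay near sham, with adult ratios of 1.11, 0.911 and 0.802 at 60 min and 0.994, 1.06 and 0.907 at 90 min against 0.975, 1.15 and 0.875 in sham. Its groups overlapped at both times, and the log2 fold changes were -0.09 and -0.01. Rps15 was likewise near sham at 90 min, at -0.05. The signs for Rps15 and Rps19 at these times changed under quantile normalization or without single arrays.

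Rpsa and Rps15a, both of the small subunit, did not go with the rest. Rpsa encodes a small subunit protein that is also described as a laminin receptor. Its adult ratios were 1.01, 1.02 and 0.972 in sham, 0.964, 0.907 and 1.24 at 60 min, and 0.974, 0.962 and 1.15 at 90 min. Replicate 3, the array lowest for most members at both times, was the highest for Rpsa. Rps15a had adult ratios of 1.09, 0.880 and 1.03 in sham, 1.01, 1.06 and 1.17 at 60 min, and 0.866, 0.948 and 1.09 at 90 min, again highest in replicate 3. The log2 fold changes were 0.04 and 0.03 for Rpsa and 0.12 and -0.05 for Rps15a, and none passed. The RefSeq table names 12 pseudogenes after Rpsa and 8 after Rps15a, of 309 pseudogenes whose symbols meet the rule, and whether such copies bound to the probes was not tested.

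**Figure D3:**
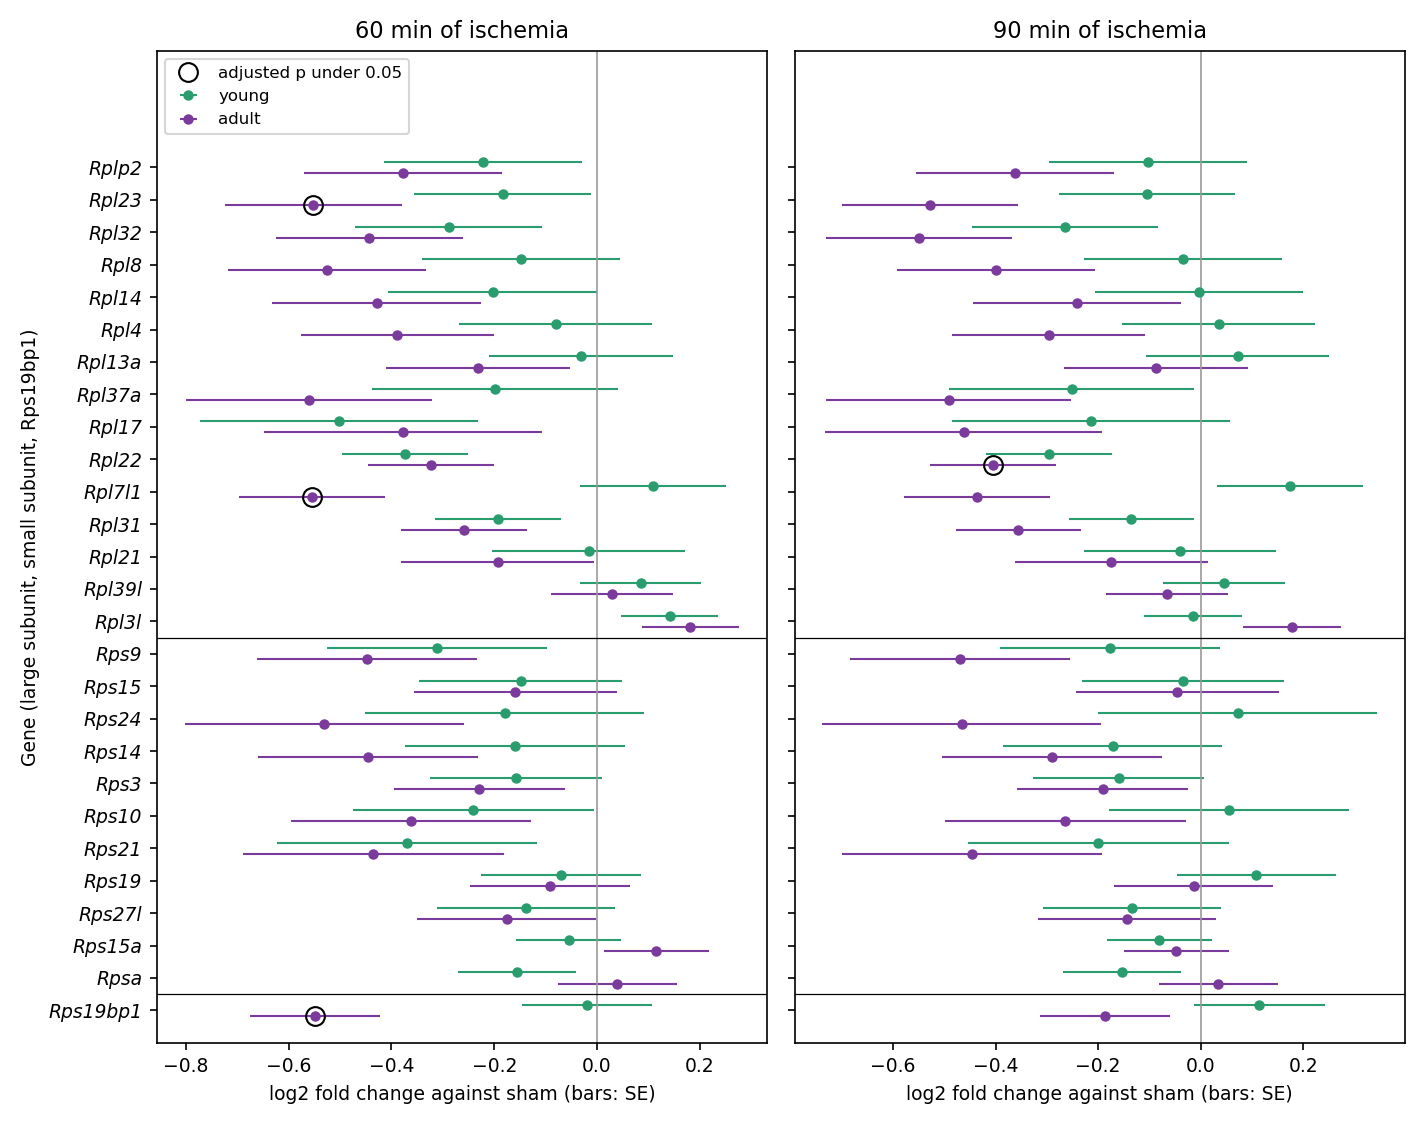
Log2 fold change against sham of the same age (horizontal axis, bars are SE from limma) for 27 of the 28 members at 60 min (left) and 90 min (right) in young (green) and adult (purple) mice, with circles around values of adjusted p under 0.05. Circles stand at Rpl23, Rpl7l1 and Rps19bp1 at 60 min and at Rpl22 at 90 min, all in adults.

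The paralogs did not move as a set. Rpl7l1, a paralog of Rpl7 that acts in ribosome assembly, had adult ratios of 0.948, 0.939 and 1.11 in sham, 0.710, 0.765 and 1.02 at 30 min, 0.636, 0.713 and 0.689 at 60 min, and 0.755, 0.735 and 0.720 at 90 min. The 60 min and 90 min arrays lay below sham and close to each other. At 60 min Rpl7l1 fell and averaged a ratio of 0.679 ± 0.0394 (SD, n = 3), a log2 fold change of -0.55 (SE 0.14, limma adjusted p = 0.0306), and at 90 min it had -0.44 (limma adjusted p = 0.062). With 1 array left out, its adjusted p at 60 min lay between 0.0412 and 0.124. In the young its ratios were 1.08, 1.08 and 1.02 at 60 min and 1.25, 1.13 and 0.958 at 90 min against 0.778, 0.980 and 1.24 in sham, and the groups overlapped.

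Rpl3l, a paralog of Rpl3 known for its expression in striated muscle, was the highest member in adults at each time. Its ratios were 0.976, 1.01 and 1.01 in sham, 1.28, 1.18 and 1.05 at 30 min, 1.19, 1.19 and 1.04 at 60 min, and 1.06, 1.19 and 1.15 at 90 min. All ischemia arrays lay above all sham arrays, which held for 5.17%, 11.1% and 12.8% of all genes at 30, 60 and 90 min. The log2 fold changes of 0.22, 0.18 and 0.18 did not pass (limma adjusted p = 0.461, 0.188 and 0.22). Rpl39l, a testis-enriched paralog of Rpl39, lay at 0.03 and -0.07 in adults at 60 and 90 min. Rps27l, a p53 target and paralog of Rps27, lay at -0.18 and -0.14.

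Rps19bp1, the nucleolar partner of Rps19 and not part of the ribosome, was called at 60 min in adults. Its ratios were 0.953, 1.08 and 0.964 in sham, 0.770, 0.825 and 1.03 at 30 min, 0.684, 0.715 and 0.651 at 60 min, and 0.946, 0.895 and 0.796 at 90 min. The 60 min arrays lay well below sham. It fell and averaged a ratio of 0.683 ± 0.0320 (SD, n = 3), a log2 fold change of -0.55 (SE 0.13, limma adjusted p = 0.0295), with adjusted p between 0.0271 and 0.122 when 1 array was left out. At 90 min its log2 fold change was -0.19 (limma adjusted p = 0.33). In the young it lay at 0.01, -0.02 and 0.11 at 30, 60 and 90 min.

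The response of adult liver was set against that of young liver gene by gene. Adult values were lower than young values in 5 of 23 core genes at 30 min, 19 of 23 at 60 min and 21 of 23 at 90 min, beside 50.7%, 59.4% and 53.6% of all genes. The median difference in log2 fold change, adult minus young, was 0.11, -0.15 and -0.24 over the core genes, and each age was read against its own 3 sham arrays. No member passed the test of the difference at any time, and 0% of all genes did. At an unadjusted limma p of 0.05, 0, 2 and 1 of 28 members passed at 30, 60 and 90 min, beside 2.1%, 6.81% and 11.2% of all genes, so the members' share was near the background or below it. Rpl7l1 had the lowest difference at all 3 times, -0.26 at 30 min, -0.66 at 60 min (SE 0.20, limma adjusted p = 0.704) and -0.61 at 90 min (SE 0.20, limma adjusted p = 0.419). Rps19bp1 followed at 60 min, with -0.53 (SE 0.18, limma adjusted p = 0.704), and Rps24 at 90 min, with -0.54 (SE 0.38, limma adjusted p = 0.549). At the other end, Rpl32 and Rps15 had 0.39 and 0.27 at 30 min, Rpsa and Rps15a 0.20 and 0.17 at 60 min, and Rpl3l and Rpsa 0.19 and 0.19 at 90 min.

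Later times were also compared with earlier times, which uses no sham array. Between 30 and 60 min in adults the core median was -0.30, with 22 of 23 core genes below 0. Over all genes the median was -0.04, with 59.9% below 0. The arrays of the 2 times overlapped: 0 of 23 core genes had all 3 arrays at 60 min below all 3 at 30 min, beside 8.06% of all genes. The lowest members were Rps24 at -0.44 and Rps21 at -0.42, and the highest Rps15a at 0.14 and Rpl39l at 0.09. Between 60 and 90 min in adults the core median was 0.04, the lowest members were Rps15a at -0.16 and Rpl32 at -0.11, and the highest Rps19bp1 at 0.36 and Rpl14 at 0.19. In the young the core median was -0.03 between 30 and 60 min, and members ranged from Rpl31 at -0.21 and Rpl21 at -0.19 to Rpl37a at 0.14 and Rpl32 at 0.15. It was 0.10 between 60 and 90 min, and members ranged from Rpl3l at -0.16 and Rpl37a at -0.05 to Rpl17 at 0.29 and Rps10 at 0.29. No member passed in these 4 comparisons, in which 0% of all genes were called. At an unadjusted limma p of 0.05, 2 of 28 members passed between 30 and 60 min in adults, beside 8.78% of all genes, and 1 between 60 and 90 min, beside 3.19%. In the young 0 and 0 passed, beside 5.16% and 9.33% of all genes.

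Within groups the core genes went up and down together from array to array. After each group's mean was subtracted, every member's log2 ratios in the 24 arrays were correlated with the mean of the other 27 members. The median Pearson r of the 23 core genes was 0.93, and 17 of 23 exceeded 0.8, from Rps19 at 0.88 to Rps9 at 0.97. Among the 14323 other genes the median r with the mean of the members was 0.09, and 5.65% exceeded 0.8. Large and small subunit genes were mixed in this order: Rps9, Rplp2, Rps15 and Rpl23 led it. All values of an array come from 1 hybridization and share its normalization, so these coefficients describe the arrays and are given without a test.

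The genes outside the common course were few. Rpsa had r = -0.54 and Rps15a r = -0.51, and both were lower in adults, at -0.79 and -0.84, than in the young, at -0.26 and 0.04. Rpl3l had -0.38, Rpl39l 0.05 and Rpl21 0.21. Rpl31, Rpl7l1, Rpl22 and Rpl17 lay between 0.54 and 0.69. Of the members called in adults, Rpl22 had 0.62 and Rpl7l1 0.56, and Rpl23 and Rps19bp1 had 0.96 and 0.82. The spread of the members was wider than that of all genes in each group except the young at 60 min. The median SD of a member's ratio was 0.187 in adults at 60 min and 0.186 in the young at 90 min. For all genes it was 0.0848 and 0.0793. For the members it was 0.0981 in adults at 90 min and 0.0812 in the young at 60 min, beside 0.0705 and 0.0887 for all genes.

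**Figure D4:**
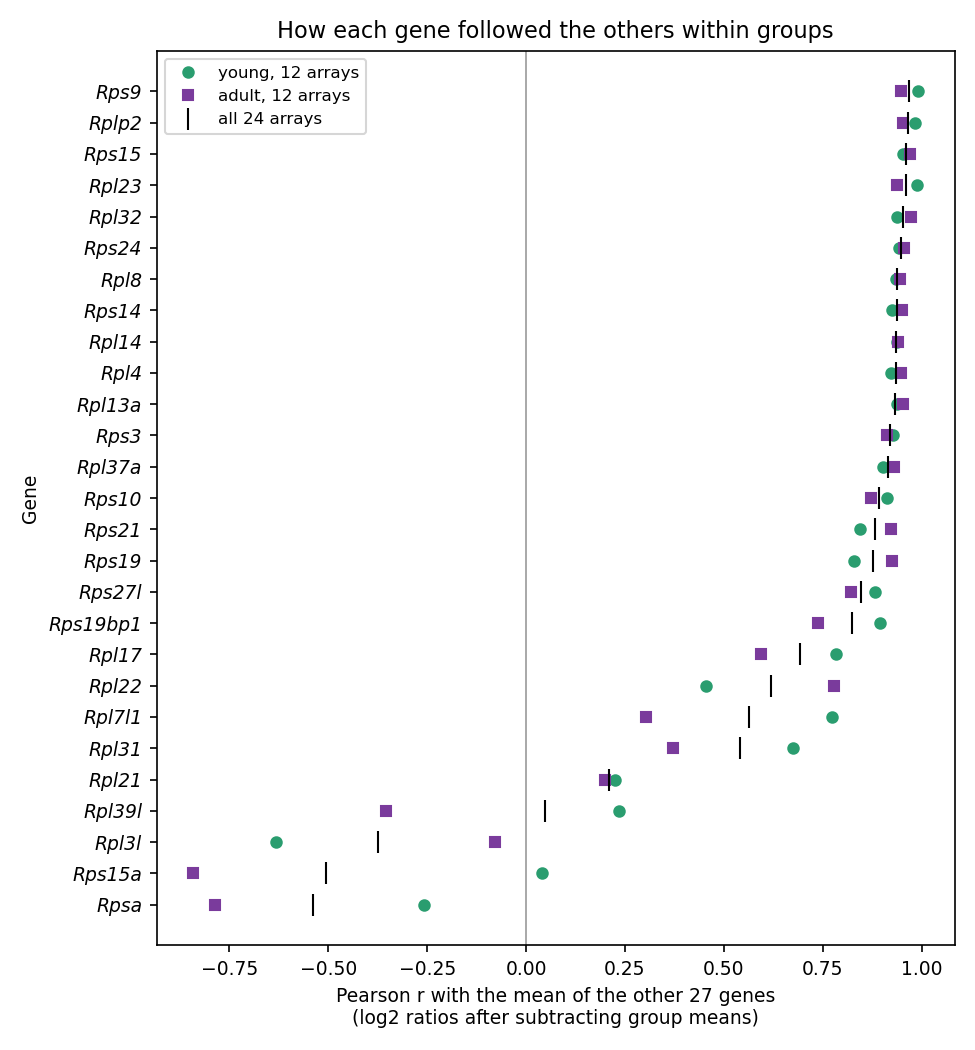
Pearson r of 27 of the 28 members (rows) with the mean of the other 27 members, from log2 ratios after subtracting group means, in the 12 young arrays (green circles), the 12 adult arrays (purple squares) and all 24 arrays (black ticks). Most genes lie above 0.8 at both ages, while Rpsa and Rps15a lie at -0.79 and -0.84 in adults.

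The genes most like the members outside the rule were found by the same measure. Over the 24 arrays after subtracting group means these were Psmb4, a proteasome subunit (r = 0.97), Ndufa2 and Ndufa8, subunits of respiratory complex I (0.97 and 0.96), Eif3i, a subunit of initiation factor 3 (0.97), and Mrpl52, a protein of the mitochondrial ribosome (0.96). Over the 8 group means these were Lias, the lipoic acid synthase (1.00), Ndufs5 of complex I (1.00), Mif4gd (1.00), Dlat, the E2 subunit of pyruvate dehydrogenase (0.99), and Cox7a2 of cytochrome oxidase (0.99). Of these 10 genes Lias, Mif4gd, Dlat and Ndufa8 fell at 60 min in adults, by 0.56, 0.29, 0.58 and 0.55 on the log2 scale (limma adjusted p = 0.0338, 0.0319, 0.0368 and 0.0348). At 90 min Lias and Mif4gd fell as well, by 0.51 and 0.28 (limma adjusted p = 0.0483 and 0.0375). Over all genes 9.78% and 6.28% were called lower at these times. With 1 array left out the calls over all genes ranged from 1 to 2177 at 60 min and from 7 to 806 at 90 min. Lias, Mif4gd and Dlat were picked for following the members' group means, so their direction was fixed by that choice. Over the 8 group means 18.9% of the 14323 genes outside the rule had r above 0.8.

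Genes that work with the ribosome were listed by function. The translation partners are elongation and initiation factors and other messages with a terminal oligopyrimidine tract, of which 11 of 21 were measured. In adults 3 of 11 fell at 60 min and 2 of 11 at 90 min, with list medians of -0.40 and -0.34, and none rose. Over all genes 9.78% and 6.28% were called lower at these times. With 1 array left out the list's count ranged from 0 to 5 at 60 min, with 0 in the same 4 fits that left no member called, and from 0 to 1 at 90 min. Eif3e, a subunit of initiation factor 3, fell at both times, with log2 fold changes of -0.56 and -0.69 (limma adjusted p = 0.03 and 0.0158). Eef1b2, the exchange factor of elongation factor 1, fell at 60 min with -0.69 (limma adjusted p = 0.0463) and had -0.68 at 90 min (limma adjusted p = 0.0591). Pabpc1, the cytoplasmic poly(A) binding protein, fell at 60 min with -0.51, and Eif3f, of initiation factor 3, fell at 90 min with -0.34 (limma adjusted p = 0.036 and 0.0481).

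Of 39 ribosome assembly factors 36 were measured. In adults 6 of 36 fell at 60 min and 6 of 36 at 90 min, with list medians of -0.27 and -0.28, and none rose, beside 9.78% and 6.28% of all genes called lower. At 60 min the count was 6 without 60 min replicate 1 and 0 when any other single array of the comparison was left out, and at 90 min it ranged from 0 to 3 with 1 array left out. Quantile normalization left no gene of this list or of the translation partners called. Nhp2 and Gar1, of the particle that makes pseudouridine in ribosomal RNA, fell at both times: Nhp2 had -0.61 and -0.65, and Gar1 -0.49 and -0.54. Ltv1, Nop16 and Heatr1 also fell at both times, Pes1 at 60 min, with -0.42, and Eif6, which keeps the subunits apart, at 90 min, with -0.56. Of 16 genes of RNA polymerase I, which transcribes ribosomal RNA, 13 were measured. In adults the polymerase I factor Taf1c and the subunit Znrd1 fell at 60 min, with -0.53 and -0.48, and Taf1b fell at 90 min, with -0.71. These were 2 of 13 and 1 of 13, beside 9.78% and 6.28% of all genes called lower. With 1 array left out the count at 60 min was 2 without 60 min replicate 1 and otherwise 0. At 90 min it was 1 without sham replicate 2 and otherwise 0. Of 19 genes of the mTOR pathway 17 were measured, and only Rheb, its activating GTPase, fell at 60 min, with -0.66 (limma adjusted p = 0.0313). This was 1 of 17, beside 9.78% of all genes called lower. The list's count stayed 1 without 60 min replicate 1 or sham replicate 2, and was 0 without any other single array. Quantile normalization left no gene of the polymerase I or mTOR list called. In the young no gene of these 4 lists passed at any time.

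Cell type markers are given because the samples are whole liver tissue, in which fewer cells of a type and less RNA per cell cannot be told apart. Of 17 hepatocyte markers 15 were measured and none passed in adults at 60 or 90 min, with list medians of -0.28 and -0.21. Without 60 min replicate 1, 7 of the 15 fell at 60 min. Their mean ratio per array ranged from 0.983 to 1.02 in adult sham, 0.895 to 1.05 at 30 min, 0.678 to 0.956 at 60 min and 0.731 to 0.973 at 90 min. In the young it ranged from 0.911 to 1.07 in sham, 0.894 to 1.07 at 30 min, 0.931 to 1.06 at 60 min and 0.879 to 1.12 at 90 min. In adults 14 of 15 markers had log2 fold changes below 0 at each of 30, 60 and 90 min, and the list median at 30 min was -0.13. In the young 13, 14 and 13 of 15 lay below 0 at 30, 60 and 90 min, with medians of -0.14, -0.06 and -0.07. Over all genes 57.0%, 58.7% and 56.5% lay below 0 in adults at 30, 60 and 90 min, and 56.6%, 55.3% and 57.6% in the young. Most hepatocyte markers thus had log2 fold changes below 0 at each time. Their mean ratios per array lay below sham in adults at 60 and 90 min. In adults at 30 min and in the young at every time they overlapped with sham, so a fall in the young is not shown. Their part in the members' values was not tested.

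Markers of Kupffer cells, the liver macrophages, also had list medians below 0 in adults. Of 13 markers 12 were measured, of which 1, Cd163, fell at 60 min and 11 fell at 90 min in adults, with list medians of -0.54 and -1.23. Over all genes 9.78% were called lower at 60 min, so the 60 min count was near that share. With 1 array left out it ranged from 0 to 3, with 0 in the same 4 fits that left no member called. With quantile normalization it was 0. With 1 array left out the count at 90 min ranged from 1 to 11, and it was 1 without sham replicate 3, without 90 min replicate 1 or with quantile normalization. Their mean ratio per array ranged from 0.746 to 1.45 in adult sham, 0.521 to 0.801 at 30 min, 0.507 to 0.866 at 60 min and 0.322 to 0.4999 at 90 min. In the young it ranged from 0.894 to 1.20 in sham, 0.784 to 1.07 at 30 min, 0.563 to 0.799 at 60 min and 0.647 to 0.902 at 90 min, and no marker passed. Ratios of this kind cannot reach 0, so whether the cells of either list were still present cannot be read from them. The part of Kupffer cells in the members' values was not tested. Among sinusoidal endothelial markers (12 of 12 measured) Stab2 fell at 90 min in adults. Among stellate cell markers (12 of 12) Rgs5 and Colec11 fell at 90 min in adults and 4 fell at 90 min in the young. Over all genes 6.28% were called lower at 90 min in adults, and 0.181% in either direction in the young. In adults with 1 array left out the endothelial count was 1 without sham replicate 2 and otherwise 0, and the stellate count ranged from 0 to 1. Both were 0 with quantile normalization. Calls over all genes in the young at 90 min, 26, ranged from 2 to 52 with 1 array left out. Markers of T and NK cells (11 of 13), B cells (4 of 6), neutrophils (8 of 10), cholangiocytes (6 of 6) and erythroid cells (4 of 6) did not pass in any comparison with sham.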

How the data were processed

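Per the labels' protocols, biotin-labelled cRNA was made from total liver RNA with the Affymetrix one-cycle 3' kit, and RMA was used, per the submitters' processing notes. What was deposited is a linear ratio to sham: in each age the sham arrays average 1 for every probe set, within 2e-07. The genome build and probe set definition are not given in the sources used here. Ratios keep no brightness, so no filter on dim probe sets, background correction or variance trend could be used, and the number of arrays limits the precision.

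A RefSeq table gave 1 symbol for 15228 probe sets and none for 10952. Where a gene had several probe sets (661 genes), 1 was taken by accession type and lowest number. The fit was made on the log2 scale with limma 3.58.1 under R 4.3.3, as 8 group means, which left 16 residual degrees of freedom beside 4.53 of the prior. Adjusted p-values are Benjamini-Hochberg over 14351 genes within each comparison, two-sided. All arrays enter 1 fit and share 1 estimate of the spread. The fit was tested on simulated data. The members, the lists and the tests were chosen with earlier results of these data known. Genes named are those past the threshold with groups that do not overlap, the 2 highest and 2 lowest members in each comparison, members fixed by role, and up to 4 genes of each list with the widest change; the other members and list genes named were chosen after their values were seen. The alternatives took each probe set separately, averaged the probe sets of a gene, used quantile normalization, median centring, the title code as a block, arrays of 1 age alone or a robust prior, or left out each array in turn. Values of 1 member are not reported here by name; it stays in the counts and medians.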

Additional observations from a re-analysis of the deposited data

How the results depend on the processing

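The count of members called in adults at 60 min, 3, was 0 with quantile normalization, 2 with median centring, with every probe set on its own, with adult arrays alone and with the replicate block (first part of the title code), and 3 with probe sets averaged per gene and with a robust prior. It ranged from 0 to 11 when 1 array was left out. The count at 90 min, 1, was 0 with quantile normalization, with median centring, with every probe set on its own and with adult arrays alone, and 2 with the replicate block, where Rpl31 and Rpl7l1 passed and Rpl22 did not. It was 0 for each array left out. Over all genes the calls at 60 and 90 min numbered 1712 and 1069, beside 0 and 3 with quantile normalization, 1400 and 1024 with median centring, 587 and 47 with adult arrays alone and 1710 and 1467 with the replicate block, and with 1 array left out they ranged from 1 to 2177 and from 7 to 806. Deviations from group means were correlated between arrays of different groups. Pairs with the same title code had a median r of 0.05 in adults and 0.05 in the young, with the lowest at -0.38 and -0.29. Of these pairs 7 of 18 in adults and 5 of 11 in the young exceeded 0.1. Pairs with different codes had medians of -0.02 and -0.02, and 8 of 36 and 10 of 43 exceeded 0.1. What the code stands for is not stated, and whether it marks a batch was not tested. In the other 11 comparisons no member was called under any alternative. With 1 array left out the adult medians ranged at 60 min from -0.57 to -0.29 for the large and -0.54 to -0.11 for the small subunit core genes, and at 90 min from -0.41 to -0.32 and -0.34 to -0.14.

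Signs changed for small values. With quantile normalization Rps19 was 0.00801 at 60 min and 0.019 at 90 min in adults, and Rps15 was 0.012 at 90 min; with median centring Rps19 was 0.011 at 90 min. With 1 array left out, log2 fold changes ranged in the young from -0.059 to 0.28 for Rpl7l1 at 60 min and -0.00949 to 0.24 for Rps19bp1 at 90 min. In adults at 30 min they ranged from -0.48 to 0.082 for Rpl17 and -0.074 to 0.28 for Rpl21. In adults at 60 min they ranged from -0.32 to 0.000542 for Rpl21, -0.053 to 0.080 for Rpl39l, -0.33 to 0.061 for Rps15, -0.22 to 0.018 for Rps19, -0.33 to 0.058 for Rps27l and -0.096 to 0.13 for Rpsa. In adults at 90 min they ranged from -0.16 to 0.0058 for Rpl13a, -0.11 to 0.069 for Rps15, -0.14 to 0.030 for Rps15a, -0.11 to 0.091 for Rps19 and -0.047 to 0.080 for Rpsa. The cause of these changes was not tested.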
